A study of Mus musculus with 2 samples.

Results

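A set of 10 genes of cytotoxic lymphocytes was followed in sorted macrophages from leukaemic mice: the granzymes Gzma, Gzmb, Gzmk and Gzmm, the pore-forming protein Prf1, the granule membrane protein Nkg7, the natural killer (NK) cell receptor Ncr1, the transcription factors Eomes and Tbx21, and the chemokine Ccl5. They were chosen by gene symbol, and all 10 were found, among 16428 genes with a read in at least 1 library. The data were 1 RNA-seq library from spleen and 1 from bone marrow of C57BL/6J mice, aged 6 to 8 weeks, that had received 500000 GFP+ leukaemia cells without irradiation. The leukaemia was an acute myeloid leukaemia (AML) driven by the fusion oncogene MLL-AF9. Both tissues were taken at 15 days, and mice of this model survived 25 to 30 days. Neither library was from a mouse without leukaemia, and how many mice stood behind each library was not stated. The sort gate was not given in the sources used here.

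Cytotoxic lymphocytes, mainly NK cells and CD8+ T cells, kill by secreting granules. Perforin opens the membrane of the target cell, and granzymes, a family of serine proteases, enter and trigger its death. Eomes and T-bet (the product of Tbx21) set up this program in NK and T cells, and Ncr1 (NKp46) marks NK cells and related innate lymphoid cells. Macrophages are not known as a main source of these transcripts, apart from Ccl5, which activated macrophages can also make.

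The spleen library held 8.26 M uniquely placed reads and the bone marrow library 9.63 M, where M stands for 1000000 reads. Macrophage genes such as Adgre1 (F4/80) were present in both, at 142 CPM in spleen, against 53.1 CPM in bone marrow, where CPM is the scaled read count per 1000000 reads. Both libraries also held transcripts of other cells. The 23 listed T cell genes summed to 2954 CPM in spleen, against 548 CPM in bone marrow, and 10 B cell genes to 4725 and 464 CPM. In the opposite direction, 14 genes of neutrophils and their precursors summed to 2198 CPM in spleen, against 48652 CPM in bone marrow. Basophil and mast cell genes (13 listed) summed to 66.1 CPM in spleen, against 2267 CPM in bone marrow. None of these 4 lists was wholly absent from either library. Ly6g, a defining neutrophil marker, was listed for neither library and was counted as 0 reads. Such a gene may have had no read or may have been missing from the authors' annotation, and these cannot be told apart. The mast cell gene Tpsb2 had 0 reads in spleen, against 1 in bone marrow.

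The upstream sequences of 3 of the genes are shown because these genes had the largest fold towards spleen (Gzma), the fold nearest to 1 (Ncr1) and the only fold towards bone marrow (Nkg7). Each run is the 250 bases before the start of the gene on its own strand, 5′ to 3′, from the RefSeq table of GRCm38.p6. The regions are chr13:113100982-113101231 on the minus strand for Gzma, chr7:4337465-4337714 on the plus strand for Ncr1 and chr7:43436888-43437137 on the plus strand for Nkg7. Capitals mark matches, on either strand, to the RUNX word TGTGGT and to the T-box word TCACACC, the kind of site that Eomes and T-bet bind.
Gzma: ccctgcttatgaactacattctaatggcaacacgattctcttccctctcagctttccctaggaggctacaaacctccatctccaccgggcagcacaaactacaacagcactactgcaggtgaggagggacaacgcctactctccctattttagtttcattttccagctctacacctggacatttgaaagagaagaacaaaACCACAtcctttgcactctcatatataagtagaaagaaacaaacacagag
Ncr1: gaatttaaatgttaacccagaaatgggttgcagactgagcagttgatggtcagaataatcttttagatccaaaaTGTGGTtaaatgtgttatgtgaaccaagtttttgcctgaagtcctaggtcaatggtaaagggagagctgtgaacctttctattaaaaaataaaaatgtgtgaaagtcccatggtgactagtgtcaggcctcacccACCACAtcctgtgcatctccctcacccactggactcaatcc
Nkg7: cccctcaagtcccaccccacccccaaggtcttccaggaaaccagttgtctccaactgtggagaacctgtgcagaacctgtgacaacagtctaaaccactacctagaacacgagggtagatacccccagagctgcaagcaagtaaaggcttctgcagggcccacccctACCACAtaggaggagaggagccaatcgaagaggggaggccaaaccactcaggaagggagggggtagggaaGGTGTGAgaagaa

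The RUNX word was present in all 3 windows, and in Ncr1 it occurred at 2 places. Among the 9 genes with an upstream sequence in the table, 6 held it (Gzma, Gzmb, Gzmm, Prf1, Nkg7 and Ncr1), against 14.0% of all 32851 windows of the same length. The T-box word was present in Gzmk and Nkg7, against 3.33% of all windows, and the ETS word GGAAGT in Gzmk, Prf1 and Tbx21, against 19.7%. These 3 were among 10 words searched, and a match describes letters only.

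By a 2-fold rule, 5 of the 10 genes were higher in spleen (Gzma, Prf1, Tbx21, Eomes and Ccl5), 1 was lower (Nkg7), and 4 lay within 2-fold (Gzmb, Gzmm, Gzmk and Ncr1). The floor for testing was 1 CPM and 10 reads in either library, and of the 12970 genes above it 14.6% were higher in spleen by that rule and 14.1% were lower. All 10 genes passed that floor in each library. Their median log2 ratio, spleen minus bone marrow on log2(CPM + 1), was 0.77, against -0.03 over all genes tested, and the range was -1.09 to 2.13. With 1 library per tissue no test between tissues was possible. The intervals of folds below are exact conditional binomial 95% intervals and cover counting error only. In such bulk samples, fewer cells of a type and less RNA per cell cannot be told apart.

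**Figure D1:**
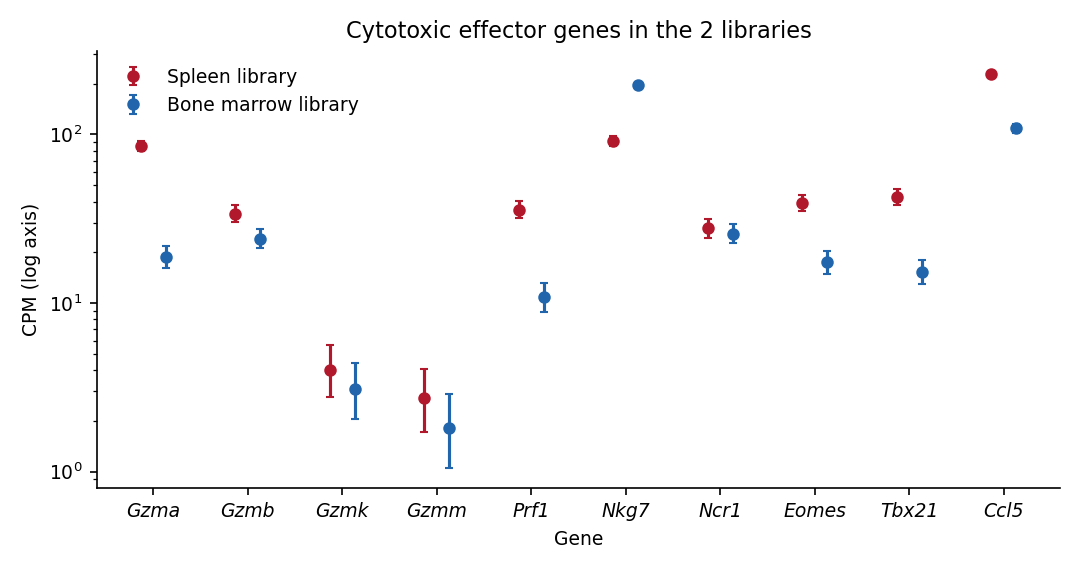
Level of each gene (CPM, log axis) in the spleen library (red, left) and the bone marrow library (blue, right), 1 library each. Bars are exact Poisson 95% intervals of the count. Nkg7 is the gene whose blue point lies clearly above its red point, and for Ncr1, Gzmk and Gzmm the bars overlap.

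The 4 granzymes did not share 1 ratio. Gzma, a granzyme with trypsin-like specificity and abundant in resting mouse NK cells, had 723 reads in spleen (85.5 CPM, 95% Poisson interval 79.4 to 91.9) and 177 in bone marrow (18.8 CPM, 16.1 to 21.8). It was 4.54-fold higher in spleen (3.85 to 5.38), with a log2 ratio above 96.4% of all genes tested. This was the largest fold among the 10 genes.

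Gzmb, the granzyme that cleaves after aspartate and activates caspases, was at 33.9 CPM in spleen (30.1 to 38.1) and 24.1 CPM in bone marrow (21.1 to 27.5). Its fold of 1.41 (1.18 to 1.68) excluded equal levels but not by 2-fold. Gzmk, a further trypsin-like granzyme whose gene lies next to Gzma on chromosome 13, had 34 reads in spleen, against 29 in bone marrow, a fold of 1.30 (0.771 to 2.22). Gzmm, which is found mainly in NK cells, had 23 reads in spleen, against 17 in bone marrow, a fold of 1.505 (0.769 to 3.0002). For Gzmk and Gzmm the intervals included both equal levels and a 2-fold difference, so neither could be separated at this depth. The gap between the adjacent genes Gzma and Gzmk was itself outside counting error, since the fold of Gzma was 3.48 times that of Gzmk (1.99 to 6.06).

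The make-up of the granzyme transcripts therefore differed between the libraries. Gzma supplied 67.8% of the 1067 granzyme reads in spleen (Clopper-Pearson 95% interval 64.9 to 70.6) and 39.3% of the 450 in bone marrow (34.8 to 44.0). Gzmb supplied 26.9% in spleen (24.3 to 29.7) and 50.4% in bone marrow (45.7 to 55.2). By RPKM, the authors' deposited level per length, Gzma and Gzmb were at 99.6 and 24.5 RPKM in spleen, against 20.9 and 16.6 RPKM in bone marrow. In bone marrow Gzmb thus had more reads and Gzma the higher RPKM, and the Poisson intervals of these 2 RPKM values overlapped.

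**Figure D2:**
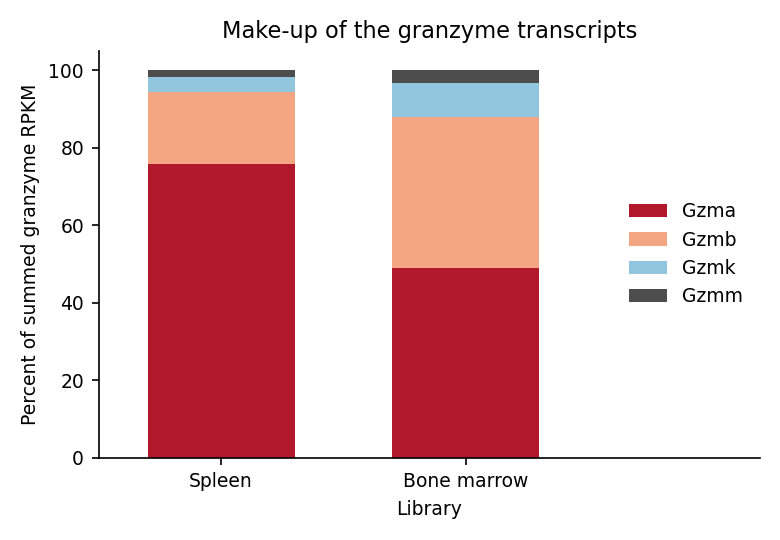
Share of each granzyme in the summed deposited RPKM of the 4 granzymes (percent), for the spleen library (left) and the bone marrow library (right). Gzma takes 75.8% in spleen and 49.0% in bone marrow, and Gzmb takes 18.6% and 38.9%.

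The other granzyme genes had few reads or none. Gzmc, which lies beside Gzmb on chromosome 14, had 3 reads in spleen, against 1 in bone marrow, a ratio of 3.34 (0.268 to 175). Gzmd, Gzme, Gzmf, Gzmg and Gzmn were listed for neither library and were counted as 0 reads. If they were in the authors' annotation, this allows up to 0.355 CPM in spleen, against 0.319 CPM in bone marrow at 3 reads. Several of these are near-identical copies, and only uniquely placed reads were counted, so their values are uncertain.

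Prf1, which encodes perforin, had the fold next to that of Gzma. It had 303 reads in spleen (35.8 CPM, 31.9 to 40.1) and 102 in bone marrow (10.8 CPM, 8.84 to 13.2), and was 3.30-fold higher in spleen (2.63 to 4.18). The fold of Gzma was 1.38 times that of Prf1 (1.03 to 1.83), a small gap, and the fold of Prf1 was 2.35 times that of Gzmb (1.75 to 3.16). Per length, Prf1 was at 17.8 RPKM in spleen and 5.16 RPKM in bone marrow. Its protein-coding neighbours on chromosome 10, Pald1 and Adamts14, were also higher in spleen, with log2 ratios of 1.72 and 1.03.

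Nkg7, a small membrane protein of cytotoxic granules that is needed for efficient degranulation, went the other way. It had 773 reads in spleen (91.4 CPM, 85.1 to 98.1) and 1838 in bone marrow (195 CPM, 187 to 205). It was 2.14-fold lower in spleen (1.96 to 2.33), a log2 ratio of -1.09, and it was the only one of the 10 genes below equal levels. Of the 10, it was the most abundant per length in bone marrow, at 235 RPKM, while it stood second in spleen, at 115 RPKM. It made up 15.4% of all reads of the 10 genes in spleen and 46.3% in bone marrow. In each of its 9 pairings with the other genes the interval of the ratio of folds excluded 1, from 2.31 for Ncr1 over Nkg7 (1.88 to 2.83) to 9.71 for Gzma over Nkg7 (8.05 to 11.7). Its neighbours on chromosome 7, Lim2 and Cldnd2, had 0 and 7 reads in spleen, against 3 and 6 in bone marrow. Neutrophil and basophil genes were lower in spleen too, with median log2 ratios of -4.61 and -4.42, and their part in the Nkg7 values was not tested.

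Ncr1 was nearly level between the tissues. It had 236 reads in spleen (27.9 CPM, 24.5 to 31.7) and 243 in bone marrow (25.8 CPM, 22.7 to 29.3), a fold of 1.08 (0.899 to 1.30). The interval left out a 2-fold difference in either direction. Reads covered 99.2% of the length of Ncr1 in spleen, against 97.9% in bone marrow, so the signal did not come from 1 short stretch. Among 182 listed genes outside the 10, those with the log2 ratio nearest to that of Ncr1 (0.11) were Klra3, Klrb1b and Klra7, all killer lectin-like receptors of NK cells, at 0.09, 0.15 and 0.06. Likeness here is a single ratio between 2 libraries, and 1152 of the genes tested lay within 0.1 of Ncr1.

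Both T-box factors were higher in spleen. Tbx21 had 360 reads in spleen (42.6 CPM, 38.3 to 47.2) and 144 in bone marrow (15.3 CPM, 12.9 to 18.0), a fold of 2.78 (2.29 to 3.40). Eomes had 333 reads in spleen (39.4 CPM, 35.3 to 43.8) and 165 in bone marrow (17.5 CPM, 15.0 to 20.4), a fold of 2.24 (1.86 to 2.72). Their folds could not be separated from each other, with a ratio of 1.24 for Tbx21 over Eomes (0.938 to 1.64). Both folds lay above that of Ncr1, by 2.57 times for Tbx21 (1.96 to 3.38) and 2.08 times for Eomes (1.59 to 2.71). Per length, Tbx21 was at 17.1 RPKM and Eomes at 10.8 RPKM in spleen, against 5.86 and 4.59 RPKM in bone marrow.

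Ccl5, a chemokine that draws T cells, monocytes and eosinophils and is made by memory CD8+ T cells and NK cells, had the most reads of the 10 genes in spleen. It had 1935 reads there (229 CPM, 219 to 239) and 1028 in bone marrow (109 CPM, 103 to 116), a fold of 2.09 (1.94 to 2.26). Per length it was also the first of the 10 in spleen, at 404 RPKM, and stood second in bone marrow, at 184 RPKM. Among chemokine receptors that bind it, Ccr3, found on eosinophils, was at 30.3 CPM in spleen, against 5.85 CPM in bone marrow, and Ccr1, found on myeloid cells, was at 7.92 CPM in spleen, against 34.9 CPM in bone marrow. The related chemokines Ccl3 and Ccl4 were lower in spleen, at 21.0 and 18.8 CPM there and 71.3 and 39.0 CPM in bone marrow. The protein-coding neighbours of Ccl5 on chromosome 11 differed from each other. Heatr9 had 52 reads in spleen, against 19 in bone marrow (log2 ratio 1.24), and Ccl9 was at 24.1 CPM in spleen, against 92.5 CPM in bone marrow (-1.90).

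**Figure D3:**
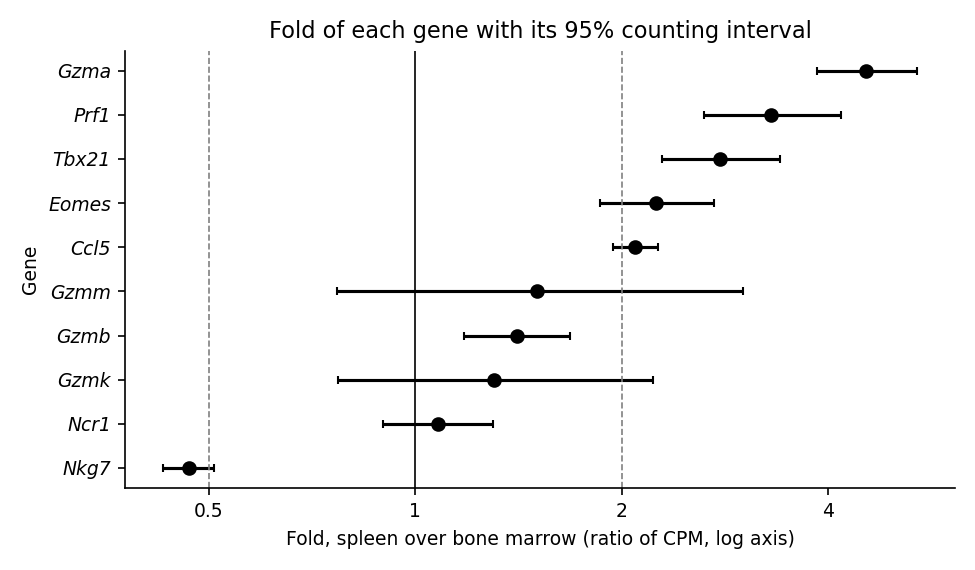
Fold of each gene, spleen over bone marrow, as a ratio of CPM on a log axis, with its exact 95% counting interval. The solid line marks equal levels and the dashed lines a 2-fold difference. Gzma, Prf1 and Tbx21 have intervals wholly above 2, and Nkg7 is the only gene below 1.

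The counting intervals sorted the 10 genes further. For 6 genes the interval lay above equal levels, for 1 (Nkg7) below, and for 3 (Ncr1, Gzmk and Gzmm) it included them. Across all genes tested, 35.9% had an interval above equal levels and 38.2% below, 74.1% in all, so such intervals were common. For Gzma, Prf1 and Tbx21 the whole interval lay above 2-fold, while those of Eomes, Ccl5 and Nkg7 reached inside 2-fold. Of the 45 pairs among the 10 genes, 32 had a ratio of folds whose interval excluded 1 and 13 did not. The genes within the set thus differed from each other in ratio by more than counting error in most pairs. These intervals were not adjusted over the 45 pairs. The share among pairs of all genes tested was not computed, so whether 32 of 45 is unusual at this depth is not known.

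Levels per length spanned a wide range. In spleen the order by RPKM was Ccl5, Nkg7, Gzma, Gzmb, Ncr1, Prf1, Tbx21, Eomes, Gzmk and Gzmm, and the highest was 187 times the lowest. In bone marrow it was Nkg7, Ccl5, Gzma, Ncr1, Gzmb, Tbx21, Prf1, Eomes, Gzmk and Gzmm, with 171 times between the ends. Of the 9 steps in each order, 4 in spleen (Nkg7 to Gzma, Gzmb to Ncr1, Ncr1 to Prf1 and Prf1 to Tbx21) and 5 in bone marrow (Gzma to Ncr1, Ncr1 to Gzmb, Tbx21 to Prf1, Prf1 to Eomes and Eomes to Gzmk) joined genes whose Poisson intervals overlapped. Gzmm, the lowest, was at 2.16 RPKM in spleen and 1.37 RPKM in bone marrow, with 55.0% and 39.7% of its length covered. The other 9 genes had at least 83.1% of their length covered in each library.

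A ratio to a base gene is the gene's fold divided by that of the base, so it restates the folds above and is no further result. The fold of Ncr1 was 1.08, so ratios to Ncr1 stayed close to those folds. Spleen held 5.10 units of Gzma RPKM per unit of Ncr1 RPKM, and bone marrow 1.21, a 4.21-fold difference (3.27 to 5.403). Prf1 per Ncr1 was 0.914 in spleen, against 0.299 in bone marrow (3.06-fold, 2.27 to 4.12). Of the 9 genes, 6 were higher per Ncr1 in spleen outside counting error, 1 (Nkg7) was lower, and Gzmk and Gzmm could not be separated. With Klrb1c (NK1.1), another NK receptor, as the base, 6 of 10 were higher in spleen, 1 was lower and 3 could not be separated. With Klrd1 (CD94) as the base the picture differed, with 0 higher, 7 lower and 3 not separated in spleen, and Klrd1 was itself 3.55-fold higher there (2.89 to 4.38).

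Set against the T cell receptor chain Cd3e, all 10 genes were lower in spleen outside counting error. Cd3e was at 107 CPM in spleen, against 12.9 CPM in bone marrow, 8.35-fold higher in spleen (6.90 to 10.2). Its log2 ratio lay above 98.8% of all genes tested, so most genes would be lower per Cd3e in spleen. The result for the 10 genes is thus not particular to them. Gzma per Cd3e was 1.30 in spleen, against 2.39 in bone marrow, and Ncr1 per Cd3e was 0.255 and 1.97. Nkg7 per Cd3e was 1.504 in spleen, against 26.8 in bone marrow, a 17.8-fold difference (14.5 to 22.1). Cd8a, the co-receptor of cytotoxic T cells, was 9.61-fold higher in spleen (8.16 to 11.4), a larger fold than that of any of the 10 genes. The direction of these comparisons thus depended on the base gene. Nkg7 was lower in spleen against all 5 base genes, Prf1 included. This restates that its own fold lay below that of each base gene and is no further result.

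**Figure D4:**
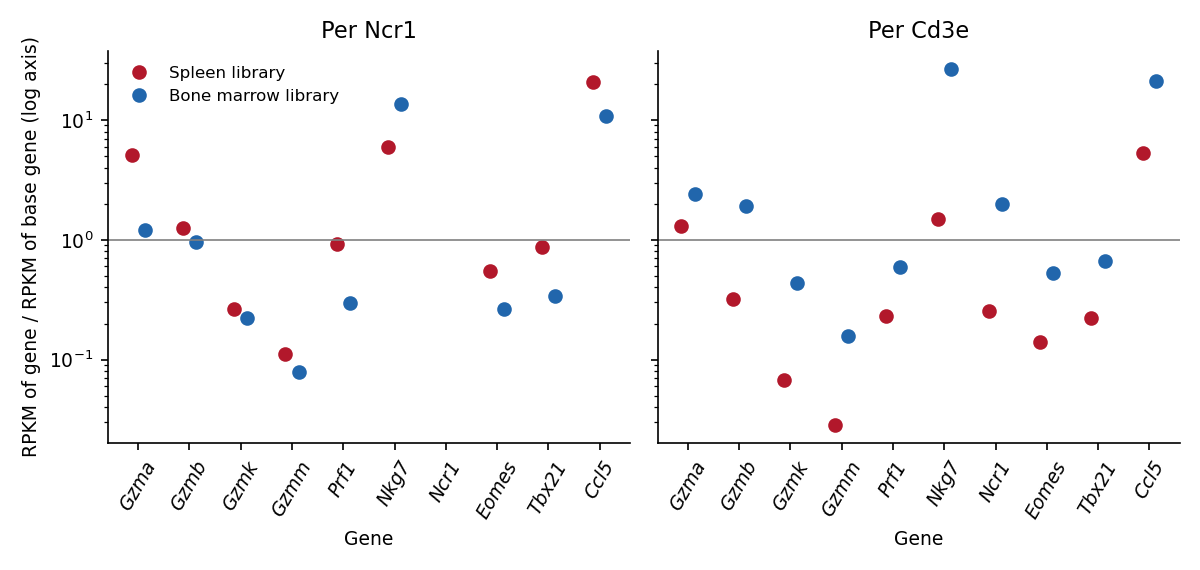
RPKM of each gene divided by the RPKM of Ncr1 (left panel) or Cd3e (right panel) in the same library, on a log axis, with spleen in red and bone marrow in blue, and no point for Ncr1 per Ncr1. Red points lie above blue ones per Ncr1 apart from Nkg7, and below blue ones for all 10 genes per Cd3e.

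The NK receptor genes beyond Ncr1 passed the 2-fold rule about as often as all genes tested, but only towards spleen. Of all genes tested, 14.6% were higher in spleen and 14.1% lower, 28.8% in either direction. Of 24 killer receptors and their adaptors, all tested, 6 were higher in spleen, 0 were lower and 18 stayed inside 2-fold (median log2 ratio 0.34). Klrb1c was at 33.3 CPM in spleen, against 34.9 CPM in bone marrow (0.956-fold, 0.813 to 1.12), and Klrk1, which encodes the activating receptor NKG2D, at 62.7 and 53.2 CPM. The 6 included Klri1, at 168 reads in spleen, against 12 in bone marrow (15.6-fold, 8.68 to 30.7), Klrg1, a receptor of mature NK and effector T cells, at 9.70 and 2.02 CPM, Klrd1 at 46.0 and 12.97 CPM, and the SLAM-family receptor Cd244a at 72.0 and 34.0 CPM. The adaptor Tyrobp, which myeloid cells also use, was at 195 CPM in spleen, against 216 CPM in bone marrow. The Klra genes are near-identical copies, and their counts are uncertain.

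Granule genes outside the 10 split by gene. Of 8 tested genes for other cargo and granule maturation, 4 were higher in spleen and 2 lower (median 0.28). The shares over all genes tested were 14.6% and 14.1%. With a pseudocount of 5 the higher count was 2. Ctsc, the cathepsin that activates granzymes, was at 191 CPM in spleen, against 72.9 CPM in bone marrow, and Ctsw, a cathepsin of NK and CD8+ T cells, at 62.9 and 30.5 CPM. Serpinb9 and Serpinb6b, serpins that inhibit granule proteases, had spleen levels 2.19 times (1.82 to 2.64) and 2.49 times (2.01 to 3.09) those of bone marrow. Cst7 (cystatin F), an inhibitor of granule cathepsins, was 6.86-fold lower in spleen (5.70 to 8.31), and Lamp2, a lysosomal membrane protein, 2.77-fold lower (2.58 to 2.99). Srgn, the proteoglycan that holds granule contents in many blood cells, was at 347 CPM in spleen, against 679 CPM in bone marrow, 1.96-fold lower (1.87 to 2.04). Neutrophil genes were lower in spleen alongside Cst7, Lamp2 and Srgn (median -4.61), and their part in these values was not tested.

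Few genes of the granule release machinery passed the 2-fold rule. Of 12 such genes, 0 were higher in spleen, 1 was lower and 11 lay within 2-fold (median -0.25), where 28.8% of all genes tested passed 2-fold. The exception was Rab27a, a GTPase that docks granules at the membrane in lymphocytes and myeloid cells, at 54.0 CPM in spleen, against 209 CPM in bone marrow (3.87-fold lower, 3.50 to 4.30). Unc13d (Munc13-4), which primes granules for fusion, was at 172 CPM in spleen, against 181 CPM in bone marrow (0.949-fold, 0.884 to 1.02). Lyst, the gene altered in beige mice, was at 270 and 150 CPM (1.80-fold, 1.68 to 1.92). Vamp7 was 1.89-fold lower in spleen (1.58 to 2.27). Differences inside 2-fold could thus still exceed counting error.

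Other effector molecules of cytotoxic cells went both ways. Of 8 tested death ligands and secreted effectors, 1 was higher in spleen, 2 were lower and 5 lay within 2-fold (median -0.07). All genes tested gave 14.6% higher and 14.1% lower. Ifng, the interferon of activated NK and T cells, had 50 reads in spleen, against 58 in bone marrow (0.959-fold, 0.643 to 1.42), and Fasl, a death ligand, 61 and 58 (1.17-fold, 0.803 to 1.71). Xcl1, a chemokine that NK and CD8+ T cells use to attract dendritic cells, was at 18.7 CPM in spleen, against 19.9 CPM in bone marrow (0.940-fold, 0.755 to 1.17). Lta, a lymphocyte cytokine, had 201 reads in spleen, against 3 in bone marrow, a ratio of 74.5 (25.1 to 364). B cells also make Lta, and the 10 listed B cell genes were all higher in spleen (median 3.03), with their part in it not tested.

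Transcription regulators of NK, innate lymphoid and T cells other than Eomes and Tbx21 were more often higher in spleen. Of 12 tested, 8 were higher, 0 were lower and 4 stayed inside 2-fold (median 1.07). Over all genes tested, 14.6% were higher and 14.1% lower. With a pseudocount of 5 the higher count was 5. Prdm1 (Blimp-1), which drives terminal effector states, was at 23.8 CPM in spleen, against 7.02 CPM in bone marrow, and Id2, which innate lymphoid cells require, at 183 and 87.5 CPM. Ikzf3 and Ets1 are shared with B and T cells, and in spleen they reached 444 and 1048 CPM, against 79.5 and 324 CPM in bone marrow. Nfil3, needed for NK cell development, was at 12.3 CPM in spleen, against 25.1 CPM in bone marrow, 2.04-fold lower as a ratio of CPM (1.61 to 2.60) and -0.97 on the log2(CPM + 1) scale, just inside the rule. Zfp683 was listed for neither library and was counted as 0 reads.

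Cytokine receptors and signalling genes of NK and effector T cells had 5 of 19 members higher in spleen and 2 lower, with a median of 0.50. The shares over all genes tested were 14.6% higher and 14.1% lower. Il2rb, the receptor chain for interleukins 2 and 15, was at 220 CPM in spleen, against 155 CPM in bone marrow (1.42-fold, 1.32 to 1.52). Il18r1 was at 66.6 CPM in spleen, against 25.9 CPM in bone marrow, while its partner chain Il18rap was at 32.2 and 55.9 CPM. Il15, the survival factor of NK cells, was 2.44-fold lower in spleen (1.67 to 3.64), at 38 reads there and 103 in bone marrow. Il12rb2 and Stat4, a receptor chain and the signal transducer of interleukin 12, were among the 3 listed genes nearest to the median of the 10. Their log2 ratios were 0.77 and 0.73, beside the dendritic and progenitor receptor Flt3 at 0.72. Of all genes tested, 652 lay within 0.1 of that median.

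T cell genes were further towards spleen than the cytotoxic genes. Of 23, 21 were higher in spleen, 1 was lower and 1 lay within 2-fold, and the median was 2.91. For this and the other lists of this paragraph, the shares over all genes tested were 14.6% higher and 14.1% lower. The part of T cells in the values of Gzma, Prf1, Tbx21, Eomes and Ccl5 was not tested. Cd8b1 was at 109 CPM in spleen, against 7.65 CPM in bone marrow, and Tcf7, a factor of naive and memory T cells, at 361 and 33.3 CPM. Ubash3a, a phosphatase of T cell receptor signalling, was the 1 lower gene, at 31.2 CPM in spleen, against 65.4 CPM in bone marrow, and it was inside 2-fold when scaled by library totals. Of 9 listed genes of gamma delta and innate-like T cells, 4 (Trdc, Tcrg-C1, Tcrg-C2 and Tcrg-C4) were absent from both libraries. They were counted as 0 reads but may have been missing from the authors' annotation. The 5 tested gave 2 higher (Blk and Cd163l1), 1 lower and 2 within 2-fold. B cell genes were higher in spleen too (median 3.03), and their part in the Blk value was not tested. The median of the gamma delta and innate-like T cell genes, 0.996, moved with the settings. It came to 2.28 at pseudocount 0.1, to 0.30 at pseudocount 5 and to -0.75 when the floor was raised to 10 CPM. Among these genes Zbtb16, a factor of NKT cells and innate lymphoid precursors, was at 8.63 CPM in spleen, against 15.2 CPM in bone marrow. Plasmacytoid dendritic cells can also carry Gzmb in mice, and their surface lectin Siglech was at 23.8 CPM in spleen, against 26.0 CPM in bone marrow (0.912-fold, 0.753 to 1.10). Of the 12 plasmacytoid genes, 4 were higher in spleen (Ly6d, Spib, Pacsin1 and Irf8) and 0 lower (median 0.48). The other 8, Siglech among them, lay within 2-fold. Of 11 tested conventional dendritic cell genes, 9 were higher and 0 lower (median 2.72). The part of B cells in the values of these dendritic cell lists was not tested. Of 15 macrophage genes, 8 were higher in spleen and 0 lower (median 1.13).

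**Figure D5:**
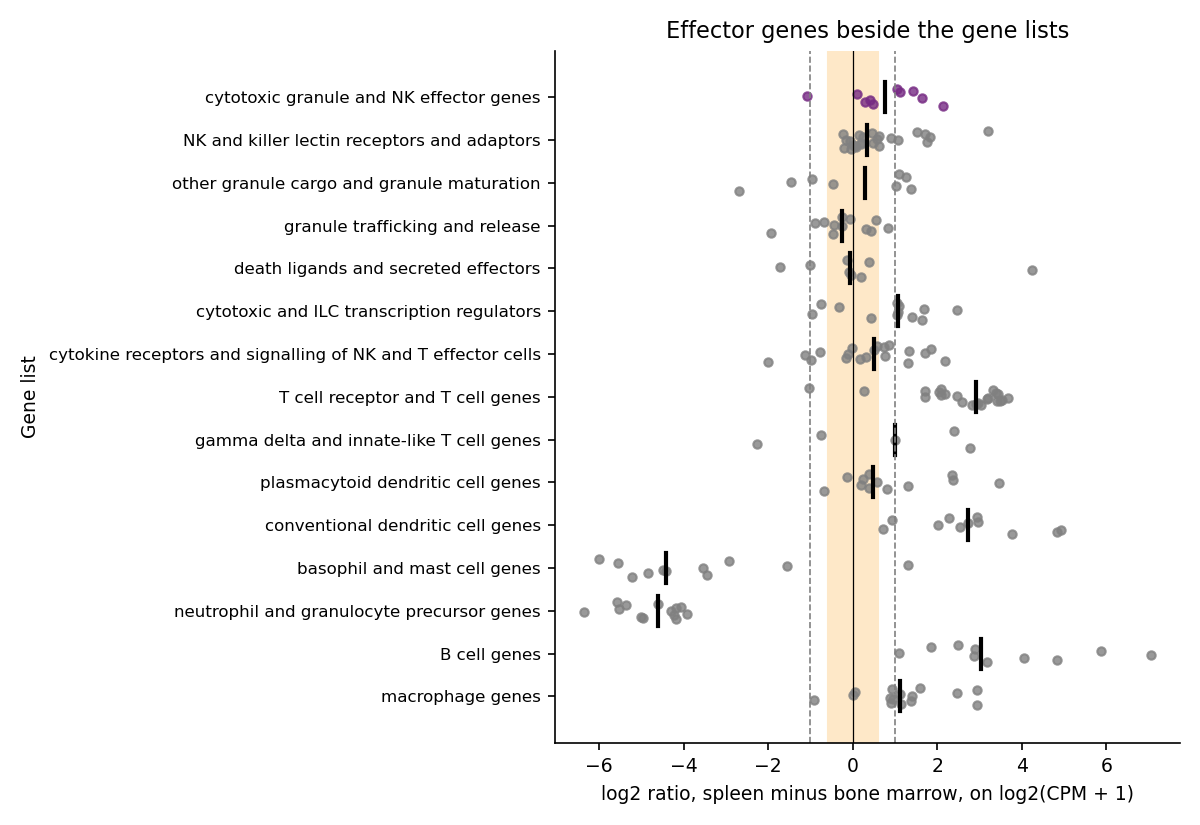
Log2 ratio, spleen minus bone marrow on log2(CPM + 1), of each tested gene (points) by list, with each list's median as a black bar and the cytotoxic effector genes in purple at the top. The shaded band is the interquartile range of all genes tested (-0.58 to 0.59) and dashed lines mark 2-fold. The effector genes (median 0.77) lie between the killer receptor list (0.34) and the T cell list (2.91).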

How the data were processed

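RNA of sorted macrophages was sequenced, with 1 library per tissue and no replicates. Per the labels' protocols, the authors made standard Illumina libraries from total RNA. For each gene the deposited tables hold, per the file headers, a count of uniquely placed reads, the percent of its length covered, and an RPKM value, the count per length and per library total. No source used here names the aligner, counting program, strand setting, build or annotation. The tables hold only genes with at least 1 read, and a gene absent from a table was given 0 reads. A gene missing from the authors' annotation would look the same. Genes were joined on the Entrez identifier and named from RefSeq (GRCm38.p6), which matched 16379 of 16428 identifiers.

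Counts were scaled with TMM (edgeR 4.0.16, R 4.3.3), and log2(CPM + 1) differences of at least 2-fold were counted among genes that reached 1 CPM and 10 reads in either library. That scale understates the change of low genes. Folds have exact conditional 95% intervals. Without molecular identifiers, reads are not independent molecules, and intervals and zero limits (3 reads) cover counting error only. Overlapping genes named in RefSeq for Gzma, Eomes and Ccl5 were listed for neither library and were counted as 0 reads. The calculation was tested on simulated data. The 10 genes, the lists and the tests were chosen with earlier results of these data known. Named genes were the 10, and from each list those with the largest ratios and levels, plus a set of anchor genes and the genes of nearest ratio. Outside that rule, Ctsw, Gzmc, Id2, Il15, Il18r1, Il18rap, Nfil3, Serpinb6b, Serpinb9, Tpsb2, Ubash3a, Unc13d and the neighbouring genes were named after their values were seen. The same holds for Il23r, Trdc, Tcrg-C1, Tcrg-C2 and Tcrg-C4. The settings also tried were size factors from DESeq2 1.42.0, scaling by library totals, other pseudocounts and floors, a 4-fold rule and the RPKM.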

Additional observations from a re-analysis of the deposited data

How the results depend on the processing

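Of the 10 genes, 5 were higher and 1 lower in spleen under DESeq2 size factors, library totals, a pseudocount of 0.1, no floor, a floor of 10 CPM and the deposited RPKM. With a pseudocount of 5, 4 were higher, since Eomes came to 0.98 on the log2 scale. Under a 4-fold rule 1 gene (Gzma) was higher and 0 were lower. Over all genes, 1898 were higher in spleen and 1832 lower. With a pseudocount of 5 the higher count was 1210, and under the 4-fold rule the counts were 530 higher and 573 lower. The median log2 ratio of the 10 genes (0.77) ranged from 0.70 with a pseudocount of 5 to 1.09 with a floor of 10 CPM, which keeps 8 of them. Of the list medians, that of the gamma delta and innate-like T cell genes changed sign, at 0.996 as reported and -0.75 when the floor was raised to 10 CPM. That floor left out Il23r and Cd163l1, at 1.42 and 5.91 CPM in spleen and lower in bone marrow. The median was then the value of Zbtb16 alone. Of the list counts recomputed, 199 stayed within 1.5 times and 25 did not. With a pseudocount of 5 the transcription regulators higher in spleen numbered 5 in place of 8, and the granule cargo genes 2 in place of 4. With 63 and 40 reads in all, Gzmk and Gzmm are limited by depth. No paired analysis was possible because each tissue had 1 library.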
